A study of Homo sapiens with 30 samples.

Results

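The human mitochondrial genome carries 37 genes, and all 37 were found among the 60675 gene rows of an RNA-seq count table made from HepG2 cells, a human hepatocellular carcinoma line. They were chosen by the MT- prefix of their symbol and by no measured value, although earlier results of these data were known. They comprise 13 protein-coding genes, 2 ribosomal RNA genes and 22 transfer RNA genes. The cells had been exposed for 24 h to ethanol extracts of 4 traditional herbal formulas, each at a low (20 µg/mL), a medium (100 µg/mL) and a high dose (500 µg/mL), or to vehicle. Sibjeondaebo-tang and Palmul-tang had 3 libraries at each dose, Samul-tang had 2 at each dose, Sagunja-tang had 1 at each dose, and the vehicle had 3, for 30 libraries in 13 groups. The vehicle was 0.1% DMSO in the sample labels, whereas the design text of the series gives 2% DMSO. As background, the Palmul-tang recipe is Samul-tang and Sagunja-tang combined, and that of Sibjeondaebo-tang is Palmul-tang with Astragalus root and cinnamon bark. Nothing in the labels says whether libraries of a group came from separate cultures, so the p-values below measure only the spread between these libraries, which may be technical.

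Mitochondrial DNA is a small circle that lies in many copies in each cell, and a dedicated RNA polymerase, POLRMT, transcribes both of its strands into long precursors. Enzymes cut the tRNAs out of these precursors, and the mRNAs and rRNAs that lie between the tRNAs are released by the same cuts. All 13 mRNAs encode subunits of the oxidative phosphorylation complexes in the inner membrane: 7 belong to complex I (NADH dehydrogenase), 1 to complex III (cytochrome bc1), 3 to complex IV (cytochrome c oxidase) and 2 to complex V (ATP synthase). The rRNAs and tRNAs serve the mitochondrial ribosome that translates these mRNAs. The remaining subunits, and the factors that copy, process and translate mitochondrial RNA, are encoded in the nucleus. Liver cells are rich in mitochondria, and most mitochondrial mRNAs and the rRNAs carry short poly(A) tails, so libraries made from polyadenylated RNA contain them. The MT-ND6 mRNA is known as the exception without a stable tail.

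Most of these genes abut on the circle, and 2 pairs of reading frames overlap on a shared mRNA. The overlaps are shown because MT-ATP8 and MT-ATP6, and likewise MT-ND4L and MT-ND4, are rows of the table that stand for parts of the same RNA molecule. In the lines below, capitals mark the bases that belong to both genes, and all 4 stretches are on the plus strand of GRCh38, read from GENCODE 29 transcripts. MT-ATP8 and MT-ATP6 share 46 bases, 22.2% of MT-ATP8 and 6.75% of MT-ATP6. MT-ND4L and MT-ND4 share 7 bases, 2.36% of MT-ND4L and 0.508% of MT-ND4. Both overlaps are shorter than the 100-base reads, and the expected counts of MT-ATP8 and MT-ND4L were whole numbers in all 30 libraries, so no fractional division of reads with the neighbouring row was seen.
MT-ATP8, end of the gene (chrM:8498-8572): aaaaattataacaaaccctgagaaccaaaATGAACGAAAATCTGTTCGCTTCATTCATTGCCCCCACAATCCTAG
MT-ATP6, start of the gene (chrM:8527-8601): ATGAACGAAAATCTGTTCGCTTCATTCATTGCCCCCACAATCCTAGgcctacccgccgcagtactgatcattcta
MT-ND4L, end of the gene (chrM:10727-10766): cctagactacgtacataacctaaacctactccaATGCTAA
MT-ND4, start of the gene (chrM:10760-10799): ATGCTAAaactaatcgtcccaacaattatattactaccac

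The libraries held 21570416 to 37707232 expected counts. Hepatocyte markers (9 genes, among them ALB, AFP and APOA1) summed to 49900 to 60180 CPM (counts scaled to library size) in each library, and endothelial markers (5 genes) summed to 1.80 to 3.15 CPM. The 5 leukocyte markers summed to 1033 to 1724 CPM, nearly all of it LYZ at 1030 to 1720 CPM, with CD14 at 2.23 to 4.06 CPM and PTPRC, the pan-leukocyte marker, at 0 in 29 of 30 libraries. The 10 fibroblast markers summed to 35.7 CPM in Sibjeondaebo-tang low replicate 3 and to 6.73 to 11.3 CPM elsewhere. COL1A2 was at 0 in 28 of 30 libraries and DCN at 0 in 29. PDGFRB (3.85 to 7.51 CPM), FBN1 (2.28 to 5.82) and COL1A1 (0.127 to 8.33) were above 0 in all 30. In Sibjeondaebo-tang low replicate 3, COL1A1 was at 8.33 CPM, COL1A2 at 7.00 and COL3A1 at 4.33. The vehicle libraries stood apart from the 27 extract libraries in RNAs that are not mitochondrial: MALAT1, a long RNA kept in the nucleus, had 238.7 to 317.8 CPM in extract libraries, against 419.5 to 444.7 CPM in vehicle libraries. RN7SL1, the RNA of the signal recognition particle, was at 1.85 to 11.3 CPM in extract libraries, against 12.6 to 19.4 CPM in vehicle libraries. The row ENSG00000280800 was at 47.8 to 122 CPM in extract libraries, against 889.9 to 1244 CPM in vehicle libraries. All 30 sample titles, vehicle included, carry the same batch label, BatchE, but the sample codes in the labels differ in prefix. The codes have their own prefix for the vehicle, another for Samul-tang and Sagunja-tang, and another for Palmul-tang and Sibjeondaebo-tang. An extract and the set of libraries it belongs to therefore cannot be told apart in a comparison with vehicle, while comparisons among doses, or between Palmul-tang and Sibjeondaebo-tang, stay within a prefix.

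Mitochondrial genes took 11.2% to 19.7% of all counts (median 15.5%), with the lowest share in a Samul-tang medium library and the highest in a Sibjeondaebo-tang medium library. The vehicle libraries had 12.9%, 12.4% and 14.5%. Sibjeondaebo-tang low libraries had 15.7%, 17.0% and 15.8%, medium libraries 15.7%, 18.5% and 19.7%, and high libraries 17.7%, 17.2% and 19.4%. All 9 of these lay above the highest vehicle library. Palmul-tang low libraries had 18.4%, 14.8% and 16.4%, medium libraries 14.9%, 14.9% and 16.9%, and high libraries 14.9%, 16.9% and 14.9%. All 9 again lay above the vehicle, without an order by dose. Samul-tang low libraries had 14.6% and 15.4%, medium libraries 12.9% and 11.2%, and high libraries 16.7% and 15.4%. Its medium libraries were the only ones of its 6 that did not lie above the highest vehicle library, and 1 of them lay below the lowest. Over all 27 extract libraries, 23 exceeded the highest vehicle share. The 95% Wilson interval of each share is at most 0.0161 points wide on either side; this covers counting error only and is far below the spread between libraries. In bulk RNA, more mitochondrial RNA per cell, less of other RNA, and a different mix of cells cannot be told apart.

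The rRNAs took a smaller part of mitochondrial counts in most extract libraries than in the vehicle. The 2 rRNAs made up 17.9% to 23.9% of mitochondrial counts in the extract libraries, against 25.6%, 24.4% and 22.6% in the vehicle libraries. The mRNA share of all counts was 14.3% ± 0.781 in Sibjeondaebo-tang high libraries and 10.1% ± 1.02 in vehicle libraries, while the rRNA share was 3.82% ± 0.357 in Sibjeondaebo-tang high libraries and 3.20% ± 0.151 in vehicle libraries (SD, n = 3 each). The ratio of MT-RNR2 to MT-RNR1 counts stayed between 3.14 and 4.40 in the 30 libraries.

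**Figure D1:**
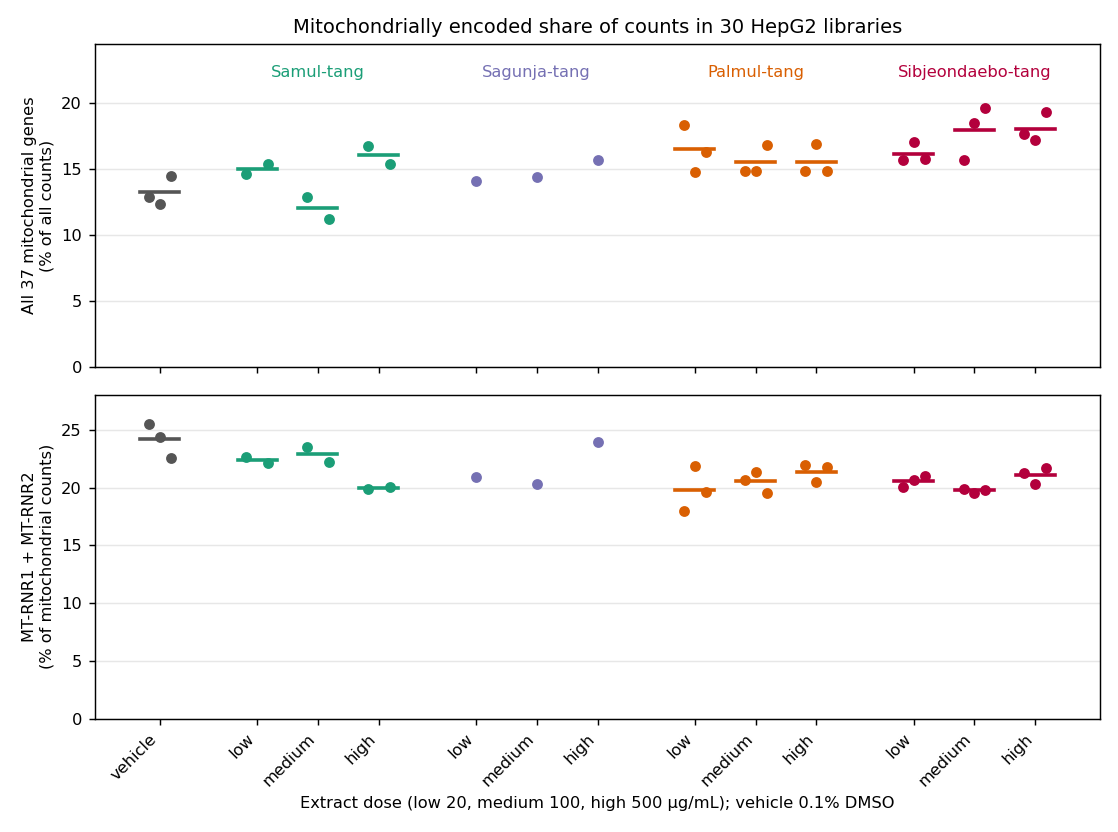
The share of all counts taken by the 37 mitochondrial genes (upper panel, percent of all counts) and the part of those counts taken by the 2 rRNAs (lower panel, percent of mitochondrial counts), with each point a library and each line a group mean. All 18 Palmul-tang and Sibjeondaebo-tang libraries lie above the highest vehicle library at 14.5% in the upper panel, and the vehicle libraries, at 22.6% to 25.6%, lie at the upper end of the lower panel.

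The mitochondrial rows were among the most abundant of the whole table. By median CPM, MT-RNR2 (16S rRNA, of the large ribosomal subunit) ranked 1, MT-CO1 2, MT-ND4 3 and MT-CO3 4 of all 60675 rows, and 11 of the 37 members stood in the first 20. MT-RNR2 took 16.6% of all mitochondrial counts and MT-CO1 16.4%, while MT-ND6 took 0.416%. Complex IV mRNAs held 39.7% to 52.8% of mitochondrial mRNA counts (median 43.9%) and complex I mRNAs 33.9% to 44.2% (median 40.7%). Complex V mRNAs held 7.34% to 9.70% (median 8.51%) and complex III 5.91% to 7.75% (median 6.91%). The values 52.8%, 33.9% and 5.91% all came from Samul-tang medium replicate 2. In the other libraries complex IV reached at most 47.2% and complex I at least 37.9%.

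Per length, the order changed. MT-CO3, a core subunit of complex IV, had the highest level at a median of 23016 CPM per kb (16028 to 26211), and stood above the next gene in all 30 libraries. MT-RNR2 (median 16560 CPM per kb), MT-CO1 (16196), which holds the oxygen-reducing centre of complex IV, and MT-CO2 (15769), which takes electrons from cytochrome c, followed within overlapping ranges: MT-RNR2 exceeded MT-CO1 in 13 libraries only. MT-ATP6 (13866 CPM per kb), the proton-channel subunit of ATP synthase, and MT-ND4 (13714), a proton-pumping subunit of complex I, could not be ordered either, with MT-ATP6 higher in 17 of 30 libraries. MT-ND3 (11918 CPM per kb), MT-ND2 (9126) and MT-ND1 (8665) of complex I came next. They were followed by MT-CYB (7597), a haem-bearing subunit of complex III, and MT-RNR1 (7334), the 12S rRNA of the small ribosomal subunit. MT-ND4L (5781 CPM per kb), MT-ATP8 (4506) and MT-ND5 (3591) were lower. MT-ATP8 and MT-ATP6 lie on a shared mRNA, as do MT-ND4L and MT-ND4, so the lower values of MT-ATP8 and MT-ND4L cannot be read as lower mRNA levels. Each value was divided by the full gene length, which is only 207 bases for MT-ATP8 and 297 for MT-ND4L. How far this lowers the values of short genes was not tested. MT-ND6 was lowest, at a median of 1224 CPM per kb and a range of 621 to 2295.

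**Figure D2:**
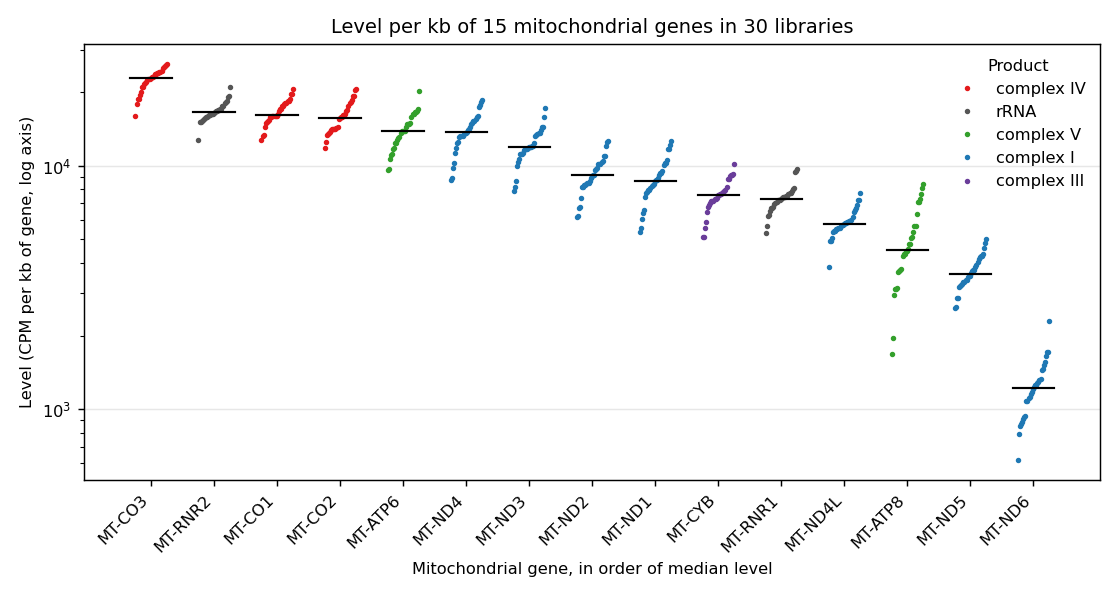
Level of the 15 mitochondrial mRNA and rRNA genes in CPM per kb of gene on a log axis, with a point for each of 30 libraries and a line at the median, coloured by the product. MT-CO3 is highest at a median of 23016 and MT-ND6 lowest at 1224, and genes next to each other in the order mostly overlap.

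MT-ND6, the mRNA without a stable poly(A) tail, also differs from the other mRNAs in its strand. Of the 37 genes, 28 belong to the transcript named after the heavy strand, 12 of the mRNAs among them, and 9 to that of the opposite strand, where MT-ND6 is the only mRNA. Its mRNA has 35.6% G and 7.05% C, while the other 12 mRNAs have 6.28% to 16.2% G (median 11.2%) and 29.5% to 36.0% C (median 33.4%). The library kit keeps strand, but the sources used here do not give the strand setting of the counting; without it, MT-ND6 reads and reads from the transcripts opposite to it cannot be told apart. MT-ND6 made up 0.507% to 0.593% of mitochondrial mRNA counts in Sibjeondaebo-tang high libraries, against 0.416% to 0.521% in vehicle libraries, and its highest value was 0.810% in Sibjeondaebo-tang medium replicate 2. The 3′ ends of the mRNA genes also differ: 7 have a length that is a multiple of 3 and end in a whole stop or terminal codon, such as TAA in MT-ATP6, MT-ND4L and MT-ND5. The genes of MT-ND2, MT-CO3, MT-ND3, MT-ND4 and MT-CYB end in a lone T and MT-ND1 in TA. As background, the poly(A) tail completes the stop codon of such mRNAs.

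The 22 tRNAs were nearly absent from the table. Of their rows, 13 were at 0 in every library, and the other 9 held 60 counts in all 30 libraries together, spread over 24 libraries. MT-TQ and MT-TA, the tRNAs for glutamine and alanine, had 19 counts each and MT-TE, for glutamate, had 11. MT-TY had 4, MT-TL1 and MT-TN 2 each, and MT-TF, MT-TC and MT-TS1 1 each, and no single value exceeded 4. A count of 0 allows up to 3 counts, which is 0.0796 to 0.139 CPM in these libraries. These genes are 59 to 75 bases long and the reads were 100 bases, so the counts say nothing of how much mature tRNA the cells held. None of the tRNA rows passed the filter on low counts, and the 15 mRNA and rRNA genes all did, far above its limit in every library; these 15 are the members tested below, among 16083 genes.

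**Figure D3:**
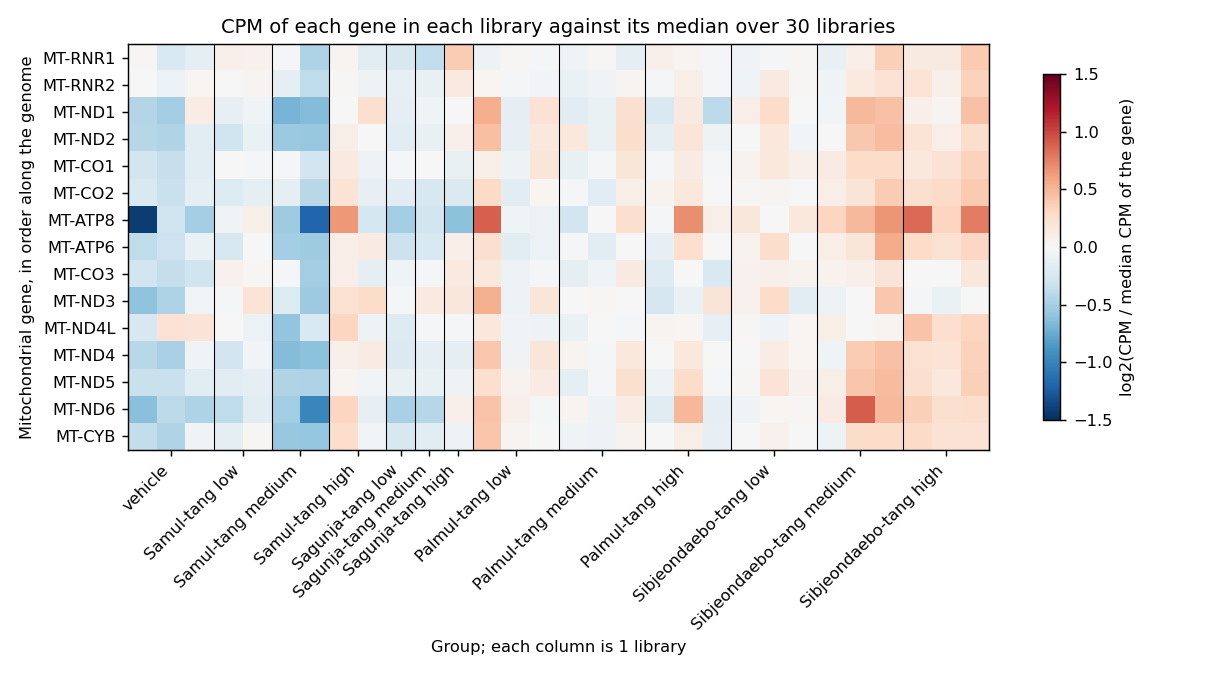
CPM of each of 15 mitochondrial genes (rows, in order along the genome) in each of 30 libraries (columns, by group) as the log2 ratio to the gene's median over the libraries. The vehicle and Samul-tang medium columns are mostly blue (below the median) and the Sibjeondaebo-tang medium and high columns mostly red (above it), and MT-ATP8 and MT-ND6 have the strongest colours.

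Genes differed in how closely libraries of a group resembled each other. The SD within groups was 0.12 on the log2 scale for MT-RNR2 and 0.14 for MT-CO1, but 0.26 for MT-ND6, 0.27 for MT-ND1 and 0.41 for MT-ATP8. The highest library had 5.00 times the MT-ATP8 CPM of the lowest and 3.70 times for MT-ND6, against 1.62 times for MT-CO1. MT-ATP8 held 4.56%, 9.02% and 6.87% of the reads given to MT-ATP8 and MT-ATP6 together in the vehicle libraries, a wide spread within a single group.

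In Sibjeondaebo-tang high libraries, 14 of the 15 members rose against vehicle and none fell, in a comparison where 36% of all genes were called (19.3% higher and 16.7% lower). The groups did not overlap for any of the 15, while they did not overlap for 48.3% of all genes tested (24.9% higher and 23.4% lower). The median log2 fold change of the 15 was 0.69, against -0.0087 for all genes tested. MT-CO1 was at 29535, 30316 and 34531 normalised CPM (CPM divided by the library's TMM factor) in the Sibjeondaebo-tang high libraries, against 19480, 18227 and 21274 in the vehicle libraries. Each treated library lay well above each vehicle library, a log2 fold change of 0.68 ± 0.10 (SE), or 1.60-fold (edgeR's quasi-likelihood test with Benjamini-Hochberg adjustment over all genes, adjusted p = 1.95e-05; n = 3 each). This test and adjustment apply to each adjusted p below.

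The other complex IV mRNAs rose as well. MT-CO2 was at 13431, 13793 and 15414 normalised CPM in Sibjeondaebo-tang high libraries, against 8711, 7964 and 9301 in vehicle libraries (log2 fold change 0.71 ± 0.13 SE, adjusted p = 0.000258 by edgeR). MT-CO3 had a log2 fold change of 0.55 ± 0.12. Among the complex I mRNAs, MT-ND4 (0.74 ± 0.15), MT-ND5 (0.70 ± 0.13) and MT-ND2 (0.70 ± 0.16) rose as well, and MT-ND1 by 0.62 ± 0.22 with an adjusted p of 0.0357 in edgeR. MT-CYB of complex III rose by 0.69 ± 0.14. Both rRNAs rose, MT-RNR1 by 0.51 ± 0.12 and MT-RNR2 by 0.41 ± 0.09, the lowest of the called fold changes apart from MT-ND4L at 0.43 ± 0.12.

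The rows of the lowest and the most variable mRNAs had the highest fold changes. MT-ATP8, a small membrane subunit of ATP synthase, was at 1777, 1222 and 1726 normalised CPM in Sibjeondaebo-tang high libraries, against 328, 705 and 625 in vehicle libraries. The lowest of these was vehicle replicate 1, and the log2 fold change was 1.51 ± 0.34 (SE, adjusted p = 0.00216 by edgeR), or 2.85-fold. MT-ATP6, on the same mRNA, rose by 0.70 ± 0.14 (adjusted p = 0.000881 by edgeR), and the sum of both rows by 0.75 ± 0.15. The 1.51 is therefore not the change of the whole shared mRNA, and why the 2 rows differ was not tested. MT-ND6 was at 873, 792 and 836 normalised CPM in Sibjeondaebo-tang high libraries, against 394, 455 and 448 in vehicle libraries, which are 2 tight and well separated groups (log2 fold change 0.95 ± 0.21, or 1.93-fold). MT-ND3 was the member that did not pass: it had 4312, 4029 and 4499 normalised CPM in Sibjeondaebo-tang high libraries, against 2564, 2780 and 3845 in vehicle libraries, a log2 fold change of 0.48 ± 0.19 (adjusted p = 0.0600 by edgeR). Leaving out any single library of either group left 13 to 15 members called.

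At the medium dose of Sibjeondaebo-tang, 14 of 15 members rose against vehicle, where 30.2% of all genes were called (15.3% higher and 14.8% lower). MT-ND6 rose by 1.16 ± 0.21 on the log2 scale (adjusted p = 0.000569 by edgeR), with 706, 1246 and 951 normalised CPM in the treated libraries against 394, 455 and 448 in the vehicle libraries. The treated libraries lay above the vehicle but were spread widely, with replicate 2 highest. MT-ATP8 rose 2.46-fold and, on the log2 scale, MT-ND5 by 0.74 ± 0.13, MT-CO1 by 0.62 ± 0.10 and MT-RNR2 by 0.26 ± 0.09. MT-ND4L, a small hydrophobic subunit of complex I, was the exception at 0.11 ± 0.12 (adjusted p = 0.534 by edgeR). A fit of the medium and vehicle libraries alone called 8 members.

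At the low dose, 7 of 15 rose and none fell, where 23% of all genes were called (11.5% higher and 11.5% lower). These were MT-CO1 (0.44 ± 0.10 on the log2 scale, adjusted p = 0.00345 by edgeR), MT-CO3 (0.46), MT-ND2 (0.46), MT-ND5 (0.45), MT-ATP6 (0.44), MT-ND4 (0.43) and MT-CYB (0.38). MT-CO1 was at 25615, 28167 and 26235 normalised CPM in Sibjeondaebo-tang low libraries, against 19480, 18227 and 21274 in vehicle libraries, with no overlap. The count rests on few libraries: it was 3 without vehicle replicate 1, 2 without vehicle replicate 2, 3 without low replicate 1, 2 without low replicate 2 and 4 without low replicate 3, the library with the higher fibroblast markers. DESeq2 called 11 and edgeR without the filter on low counts 14. MT-RNR1 (0.17 ± 0.12) and MT-RNR2 (0.13 ± 0.09) were not called, and MT-ND4L had a log2 fold change of 0.0058 ± 0.12.

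**Figure D4:**
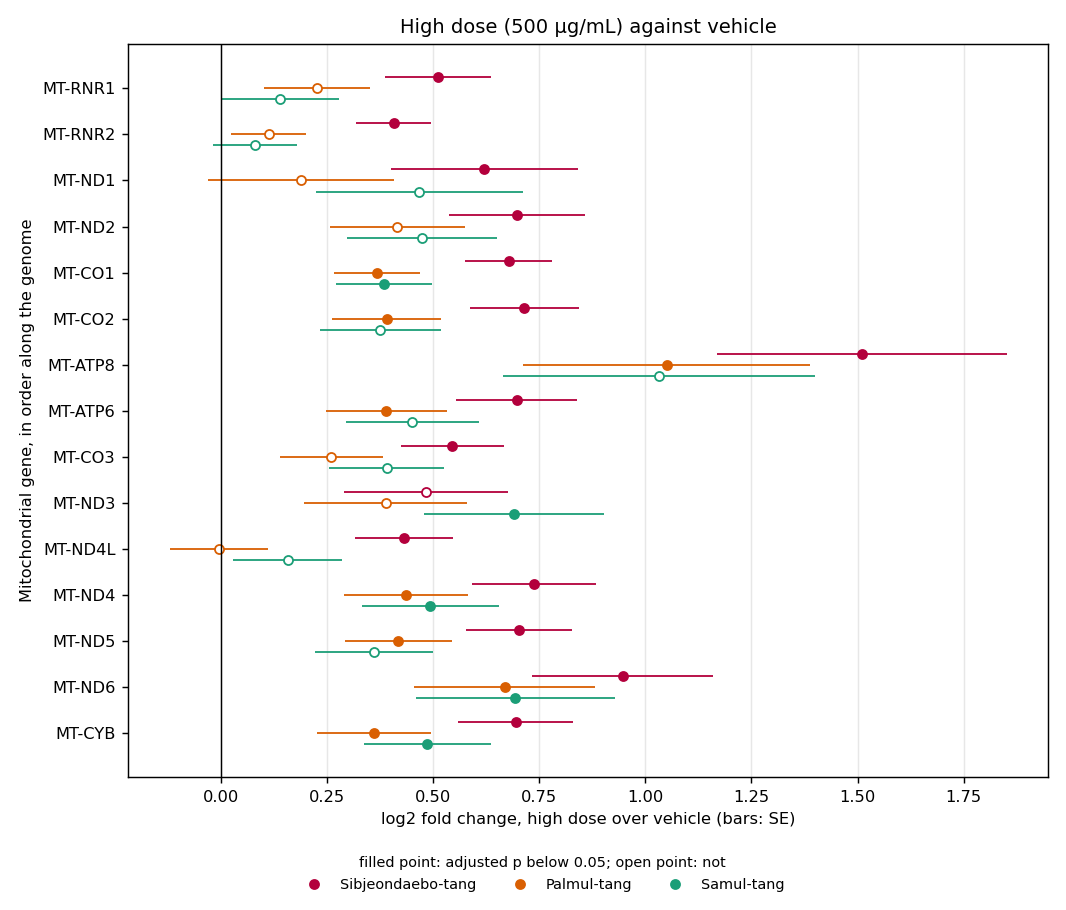
Log2 fold change of 15 mitochondrial genes at the high dose over vehicle (points, with SE bars) for 3 formulas, with filled points where edgeR's adjusted p was below 0.05. Sibjeondaebo-tang has 14 filled points, Palmul-tang 8 and Samul-tang 5, MT-ATP8 lies farthest to the right for each formula, and the comparisons share the same 3 vehicle libraries.

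Palmul-tang was compared with the same 3 vehicle libraries, so its calls are not independent of those above. At the high dose 8 of 15 members rose and none fell, where 31.8% of all genes were called (16.3% higher and 15.6% lower). MT-CO1 rose by 0.37 ± 0.10 on the log2 scale (adjusted p = 0.00808 by edgeR), with 24095, 27578 and 24427 normalised CPM in Palmul-tang high libraries against 19480, 18227 and 21274 in vehicle libraries. MT-ATP8 rose by 1.05 ± 0.34, MT-ND6 by 0.67 ± 0.21, MT-ND4 by 0.44, MT-ND5 by 0.42, MT-CO2 and MT-ATP6 by 0.39 each and MT-CYB by 0.36. Replicate 2 was the highest of the 3 treated libraries for MT-ATP8 (912, 1541 and 982 normalised CPM, against 328, 705 and 625 in vehicle libraries) and for MT-ND6 (560, 920 and 582, against 394, 455 and 448). The count was 0 without Palmul-tang high replicate 2, 1 without vehicle replicate 1 and 3 without vehicle replicate 2, and it was 13 without the filter on low counts.

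At the medium dose of Palmul-tang 5 members rose, where 22.3% of all genes were called (11.6% higher and 10.8% lower). They were MT-ND2 (0.54 on the log2 scale), MT-ND4 (0.45), MT-ND5 (0.38), MT-CO3 (0.37) and MT-CO1 (0.37). The count was 0 without vehicle replicate 2 or without medium replicate 3, 1 without vehicle replicate 1 and 3 without medium replicate 1, and it was 8 with the compared groups alone and 12 without the filter on low counts. At the low dose 10 rose, where 23.2% of all genes were called (11.5% higher and 11.7% lower), with MT-ATP8 at 1.09, MT-ND6 at 0.75, MT-ND3 at 0.67, MT-ND2 at 0.61, MT-ND4 at 0.59, MT-CYB at 0.54, MT-ND5 at 0.50, MT-CO3 and MT-CO1 at 0.42 each and MT-CO2 at 0.39. Palmul-tang low replicate 1 was the highest library of its group for most members, for instance MT-ND1 at 12428 normalised CPM against 7285 and 9668 in replicates 2 and 3, and 4 members were called without it. Without vehicle replicate 1 or vehicle replicate 2 the count was 6, and with the compared groups alone it was 5. Neither rRNA was called at any Palmul-tang dose, with log2 fold changes of 0.06 to 0.11 for MT-RNR2 and 0.13 to 0.23 for MT-RNR1, and MT-ND4L had fold changes of 0.03, -0.03 and -0.0053 from low to high.

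Samul-tang, with 2 libraries at each dose and the same vehicle, had 5 members higher at the high dose, where 18.5% of all genes were called (9.82% higher and 8.69% lower). MT-ND6 (0.69 ± 0.23 on the log2 scale) and MT-ND3 (0.69 ± 0.21) rose most among these, followed by MT-ND4 (0.49), MT-CYB (0.49) and MT-CO1 (0.38, adjusted p = 0.0203 by edgeR). No member was called without Samul-tang high replicate 2 or without vehicle replicate 2, and 1 without vehicle replicate 1; DESeq2 called 9 and edgeR without the filter on low counts 14. At the medium dose MT-ND4L was the only member called, and it fell, where 19.8% of all genes were called (10.3% higher and 9.57% lower). A single call among the 15 is below the share of all genes called lower. MT-ND4L was at 1121 and 1369 normalised CPM in Samul-tang medium libraries, against 1377, 1857 and 1877 in vehicle libraries. The higher treated library lay just below the lowest vehicle library (log2 fold change -0.45 ± 0.13, adjusted p = 0.0196 by edgeR). Of the 15 members, 12 had a negative fold change at this dose, with a median of -0.20. The Samul-tang medium libraries differed most of all same-group pairs over all genes tested. Their chi-square per degree of freedom was 29.2, against 2.85 to 17.8 for the other pairs. The MT-ND4L call was lost without vehicle replicate 2, vehicle replicate 3 or Samul-tang medium replicate 2, and in a fit of the compared groups alone. Without the filter on low counts 9 members were called, 8 of them lower.

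At the low dose of Samul-tang 1 member rose, where 11.3% of all genes were called (6.47% higher and 4.79% lower). This count is near the share of all genes called higher. MT-CO3 was at 18772 and 18093 normalised CPM in Samul-tang low libraries, against 13960, 13060 and 14093 in vehicle libraries (log2 fold change 0.43 ± 0.14, adjusted p = 0.0461 by edgeR). These groups are far apart, but the call was lost without either Samul-tang low library and without vehicle replicate 1 or vehicle replicate 2. With the replicate number as a block 0 members were called, with the compared groups alone 4 and without the filter on low counts 12. The 3 comparisons of mitochondrial share with vehicle at the high dose gave 18.1% in Sibjeondaebo-tang, 15.6% in Palmul-tang and 16.1% in Samul-tang libraries, against 13.3% in vehicle libraries. With 3 libraries against 3 an exact permutation test cannot go below p = 0.1, which Sibjeondaebo-tang and Palmul-tang reached, and Samul-tang had p = 0.2 (two-sided); none of the 15 share tests passed after Benjamini-Hochberg adjustment, the smallest adjusted p being 0.188.

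The comparison of doses within Sibjeondaebo-tang does not use the vehicle. Of the 15 members, 3 were higher at the high than at the low dose and none was lower. Of all genes, 19.8% were called (10.4% higher and 9.44% lower). The members' share of calls is near the background for either direction. Their 3 calls were all higher, where the share of all genes was 10.4%. MT-CO2 was at 13431, 13793 and 15414 normalised CPM in high libraries, against 10790, 11152 and 10687 in low libraries (log2 fold change 0.39 ± 0.13, adjusted p = 0.0408 by edgeR). MT-ND4L was at 2434, 2131 and 2329 normalised CPM in high libraries, against 1727, 1668 and 1737 in low libraries (0.43 ± 0.12, adjusted p = 0.0130). MT-RNR2 was at 31581, 28529 and 35711 normalised CPM in high libraries, against 24492, 28478 and 25955 in low libraries (0.28 ± 0.09, adjusted p = 0.0261). The high and low libraries of MT-CO2 and MT-ND4L were well apart, while those of MT-RNR2 nearly touched. MT-ATP8 (0.64 ± 0.33), MT-ND6 (0.38 ± 0.21) and MT-RNR1 (0.34 ± 0.12) were not called, and MT-ND3 had -0.01 ± 0.19. The median of the 15 was 0.28, against 0.02 for all genes. The calls depend on the libraries: none was left without high replicate 1 or high replicate 3, 1 without low replicate 1, low replicate 2 or low replicate 3, and 2 without high replicate 2. MT-CO2 was not called with median-ratio factors (adjusted p = 0.0586 by edgeR) and MT-RNR2 was not called by DESeq2 (adjusted p = 0.0501), while 12 members were called without the filter on low counts and 10 in a fit of the high and low libraries alone.

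Palmul-tang gave no member called between its high and low doses in edgeR, where 6.78% of all genes were called (3.75% higher and 3.03% lower); 0 had an unadjusted p below 0.05, DESeq2 called 0, and edgeR without the filter on low counts called 5, all lower. Their median log2 fold change was -0.08. Samul-tang likewise gave 0 called, where 1.42% of all genes were called (0.709% higher and 0.715% lower), 0 at an unadjusted p below 0.05, 0 in DESeq2 and 7 without the filter, with a median of 0.20. The difference between formulas in the effect of dose was tested as an interaction. For Sibjeondaebo-tang minus Palmul-tang no member passed in edgeR (2% of all genes did), although 5 had an unadjusted p below 0.05: MT-CYB, MT-ND4L, MT-ND4, MT-CO2 and MT-RNR2. The differences of the 15 ranged from 0.22 to 0.69 (median 0.39) and the smallest adjusted p was 0.233. For Sibjeondaebo-tang minus Samul-tang 0 passed and 2, MT-RNR1 and MT-RNR2, had an unadjusted p below 0.05 (1.68% of all genes called), and for Palmul-tang minus Samul-tang 0 passed and 0 had an unadjusted p below 0.05 (0.0124% called).

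Sibjeondaebo-tang was set against Palmul-tang at matched doses. Averaged over the 3 doses, all 15 members had a positive log2 fold change, from 0.03 (MT-ND3) to 0.27 (MT-ATP6), with a median of 0.18 beside 0.0071 for all genes, but none was called by edgeR, where 2.44% of all genes were called (0.435% higher and 2% lower). There were 8 with an unadjusted p below 0.05, DESeq2 called 0, and edgeR called 14 without the filter on low counts and 1 with the compared groups alone. MT-RNR2 (0.17 ± 0.05, adjusted p = 0.0702) and MT-CO1 (0.19 ± 0.06, adjusted p = 0.0875) came nearest in edgeR. A single call appeared without Palmul-tang medium replicate 3 (MT-CO1), without Palmul-tang low replicate 1 (MT-ATP6), and without Sibjeondaebo-tang medium replicate 1 or high replicate 2 (MT-RNR2 in both).

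The shares of counts were compared in the same way. Within doses, the share of mitochondrial genes was 17.4% in Sibjeondaebo-tang libraries and 15.9% in Palmul-tang libraries, a difference of 1.52 points (exact two-sided permutation test within dose, p = 0.0520, adjusted p = 0.188; n = 9 each). By dose the difference was -0.342 points at low, 2.40 at medium and 2.51 at high. The rRNA share was 3.56% in Sibjeondaebo-tang libraries and 3.25% in Palmul-tang libraries (exact permutation p = 0.0155, adjusted p = 0.188). High minus low dose within formulas gave 16.6% at high and 15.9% at low, a difference of 0.669 points (exact permutation p = 0.273, adjusted p = 0.341; n = 8 each), with 1.90 points in Sibjeondaebo-tang, -0.953 in Palmul-tang and 1.06 in Samul-tang.

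**Figure D5:**
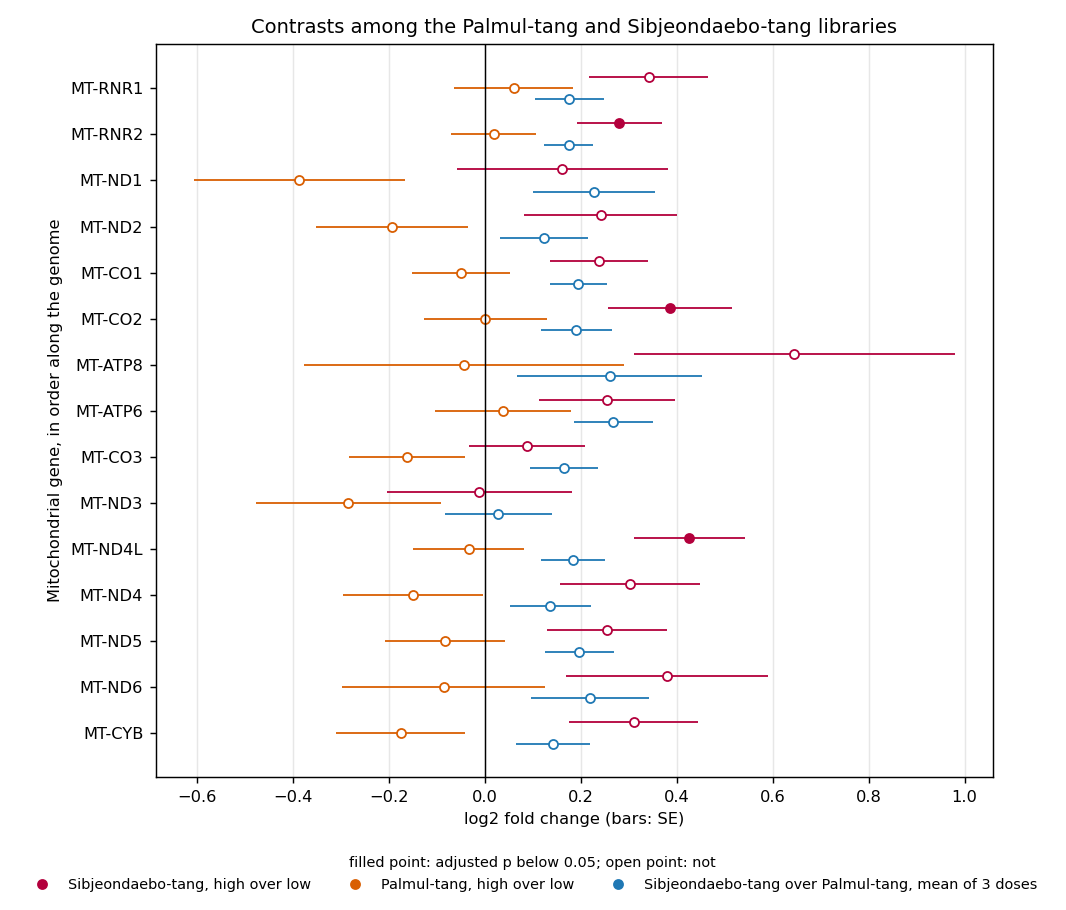
Log2 fold change (points, with SE bars) of 15 mitochondrial genes for Sibjeondaebo-tang high over low, Palmul-tang high over low, and Sibjeondaebo-tang over Palmul-tang averaged over 3 doses, with filled points where edgeR's adjusted p was below 0.05. MT-RNR2, MT-CO2 and MT-ND4L are the filled points, all for Sibjeondaebo-tang high over low, and the averaged formula contrast lies between 0.03 and 0.27.

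Sagunja-tang had 1 library at each dose, so its values have no replicate check and no test. Mitochondrial genes took 14.1% of counts at the low, 14.4% at the medium and 15.7% at the high dose (95% Wilson intervals 14.11% to 14.13%, 14.40% to 14.42% and 15.73% to 15.75%, counting error only). Of the 15 members, 12 were higher in the high than in the low library, with a median log2 ratio of 0.17, from -0.10 for MT-CO1 to 0.62 for MT-RNR1. MT-ND6 had 0.56 and MT-ATP6 0.42. In the medium against the low library the median log2 ratio was 0.06.

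The overlapping genes were also summed, so that each shared mRNA counts as 1 feature. MT-ATP8 and MT-ATP6 together rose by 0.75 ± 0.15 on the log2 scale in Sibjeondaebo-tang high against vehicle libraries (edgeR, adjusted p = 0.000886), by 0.45 ± 0.15 in Palmul-tang high (adjusted p = 0.0311) and by 0.50 ± 0.17 in Samul-tang high libraries (adjusted p = 0.0444). MT-ND4L and MT-ND4 together rose by 0.69 ± 0.14 in Sibjeondaebo-tang high (edgeR, adjusted p = 0.000655), 0.40 ± 0.14 in Palmul-tang high (adjusted p = 0.0320) and 0.47 ± 0.15 in Samul-tang high libraries (adjusted p = 0.0373). The fall of MT-ND4L in Samul-tang medium libraries was not called for the sum (-0.32 ± 0.15, adjusted p = 0.163 by edgeR), nor was its difference between Sibjeondaebo-tang high and low (0.29 ± 0.14, adjusted p = 0.159). MT-ND4L took 6.47% to 10.6% of the counts of this pair in extract libraries, against 9.35%, 12.9% and 9.72% in vehicle libraries.

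Copies of mitochondrial DNA in the nuclear genome can also share reads with the members. The table has 391 rows for such copies, of which 8 were tested. The most abundant was MTATP6P1 on chromosome 1, 98.5% identical to its mitochondrial counterpart, at a median of 1754 CPM (1077 to 2632), followed there by MTND2P28 at 338 CPM (98.4% identical) and MTCO1P12 at 78.8 CPM (98.7% identical). Of their 100-base windows, 11.9%, 26.0% and 27.8% match the mitochondrial gene exactly, in that order. A single read from those windows cannot be assigned by its own sequence. The reads were paired, and the share for pairs of reads was not computed. Expected counts were not whole in 96.7% of libraries for each of these 3 copies and for MT-ATP6, MT-ND2 and MT-CO1. The same held in 100% of libraries for MT-CO2 and MT-CO3 and in 93.3% for MT-ND1. It held in 40% for MT-RNR2, 16.7% for MT-ND4 and 3.33% for MT-ND6. MTCO3P12, 98.2% identical, had a median of 0.675 CPM. The nuclear copies held 1.26 to 1.81 counts for every 100 mitochondrial counts in extract libraries, against 1.16 to 1.28 in vehicle libraries. In Sibjeondaebo-tang high against vehicle libraries 4 of the 8 rose, where 36% of all genes were called (19.3% higher). They include MTATP6P1 (1.08 ± 0.21 on the log2 scale), MTND2P28 (0.57 ± 0.14) and MTCO3P12 (0.76 ± 0.30, adjusted p = 0.0473 by edgeR), while MTCO1P12 was not called (0.49 ± 0.19, adjusted p = 0.0522).

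Nuclear genes that act on mitochondrial DNA and RNA were described by list, with Sibjeondaebo-tang high first against vehicle (all-gene median -0.0087, 36% called) and then against the low dose (all-gene median 0.02, 19.8% called). Of 10 genes for mitochondrial transcription, 0 rose and 2 fell against vehicle (median log2 fold change 0.08), and 3 rose and 2 fell against the low dose (median 0.07). The 2 that fell in both comparisons were MTERF2, a DNA-binding member of the termination factor family (-0.32 ± 0.08 against vehicle, -0.31 against low), and MTERF4, which acts in assembly of the large ribosomal subunit (-0.17 in both). MRPL12, a ribosomal protein that also binds POLRMT, rose by 0.24 ± 0.05 against the low dose, and TFB1M, the 12S rRNA methyltransferase, by 0.20.

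RNA processing and tRNA maturation (16 genes) had 3 higher and 5 lower against vehicle (median -0.01) and 3 higher and 1 lower against the low dose (median 0.11). Against vehicle GTPBP3 fell by 0.39 and MTO1 rose by 0.27; their products act together to modify the same wobble uridine of mitochondrial tRNAs. Of 14 genes for mRNA stability and decay, 1 rose and 1 fell against vehicle (median 0.03) and 3 rose and 1 fell against the low dose (median 0.10). REXO2, which degrades short RNA fragments, rose by 0.38 ± 0.09, and FASTK, needed for the MT-ND6 mRNA, fell by 0.37 ± 0.07 against vehicle and by 0.31 against the low dose. Of 15 genes for replication and maintenance of mitochondrial DNA, 2 rose and 4 fell against vehicle (median -0.0096), with TOP1MT, a topoisomerase, at 0.36 ± 0.06 and TK2, the mitochondrial thymidine kinase, at -0.67 ± 0.10. Against the low dose 3 of them rose and 1 fell (median 0.05).

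Of the 79 mitoribosomal protein genes, 27 rose and 8 fell against vehicle (median 0.08), and 20 rose and 1 fell against the low dose (median 0.13). MRPS5 (0.44) and MRPL32 (0.49) had the smallest adjusted p against vehicle, MRPL45 rose by 0.24 against the low dose, and MRPS25 fell in both comparisons (-0.32 and -0.27). Of 12 translation factors, 6 rose and 2 fell against vehicle (median 0.08), with the initiation factor MTIF3 at 0.52 ± 0.11 and the release factor MTRF1L at 0.39 ± 0.05; 2 rose and 1 fell against the low dose (median 0.13), where the elongation factor TUFM rose by 0.19 ± 0.04. The chaperone and protease list (11 genes) had 4 higher and 1 lower against vehicle (median 0.05), and 5 higher and 0 lower against the low dose (median 0.15). The chaperone TRAP1 rose in both (0.30 ± 0.04 and 0.24), and SPG7, a subunit of an inner-membrane protease, fell by 0.32 against vehicle.

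The partners of the mitochondrial subunits in the respiratory chain, encoded in the nucleus, moved in both directions. Of 76 tested, 8 rose and 12 fell in Sibjeondaebo-tang high against vehicle libraries, where 36% of all genes were called (19.3% higher and 16.7% lower). The list's share of calls is thus below the background. The median log2 fold change of the 76 was -0.03, while the 13 mitochondrial mRNAs had a median of 0.70. NDUFA12 of complex I rose by 0.41 and CYC1 of complex III by 0.35, and UQCRQ of complex III fell by 0.51 ± 0.09. Against the low dose 4 rose and 0 fell (median 0.11), where 19.8% of all genes were called, beside a median of 0.25 for the mitochondrial mRNAs. The difference between the lists was not tested. Among 9 regulators of mitochondrial biogenesis, 3 rose and 3 fell against vehicle (median 0.04): PPARGC1A, a coactivator that drives biogenesis, rose by 0.43 ± 0.07 and its relative PPARGC1B fell by 0.63 ± 0.13. Against the low dose 2 rose and 0 fell (median 0.05), PPARGC1A among them at 0.21.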

How the data were processed

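Gene-level expected counts were deposited in a single table with 1 column per library, whole in all but 8.56% of values. RSEM 1.3.3 and STAR 2.7.3a are named in the submitters' processing notes, beside Trim Galore 0.6.5, FastQC 0.11.9 and the build GRCh38 (hg38). The annotation release and the strand setting of the counting are not given in the sources used here. RSEM divides reads that fit several genes between them by estimate, which can touch genes with nuclear copies. Per the labels' protocols the kit was directional and the reads were paired, 100 bases each. The table has 240 further columns, which were not analysed here.

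Gene IDs were matched to symbols (56558 of 60675 rows had an entry, 41209 a symbol). Gene positions and sequences were taken from GENCODE 29. The 37 genes with an MT- symbol were taken whole, and all are named. Of each nuclear list, up to 3 genes with the smallest adjusted p in Sibjeondaebo-tang high against vehicle, and up to 3 against the low dose, could be named, and of the nuclear copies the 4 with the highest mean count. The members and lists were chosen with earlier results of these data known.

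Expected counts were rounded. edgeR 4.0.16 (R 4.3.3) was fitted with TMM factors (0.919 to 1.07) to the 27 libraries of the 10 groups with 2 or 3 libraries, without covariates (17 residual degrees of freedom), after its filter by expression at a minimum count of 10 and a total of 15, which left 16083 genes. The quasi-likelihood test was robust and two-sided, and adjusted p below 0.05 over all genes tested was called. Shares of counts were compared by exact two-sided permutation tests, stratified by dose or formula, with adjustment over 15 tests. The Sagunja-tang log2 ratios used a prior count of 2. The edgeR fit was tested on simulated counts in which every gene had the same biological coefficient of variation (5.47%). The members themselves differed in spread, and the other steps were not tested on simulated data. Alternatives were DESeq2 1.42.0, median-ratio factors, library sizes from nuclear genes, no filter, the compared groups alone, a replicate block, removal of nuclear copies or of ENSG00000280800 and ENSG00000280614, and leaving out each library. The common biological coefficient of variation was 5.47%. Python 3.11.15 with scipy 1.17.1 and matplotlib 3.10.9 was used for the rest.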

Additional observations from a re-analysis of the deposited data

How the results depend on the processing

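Without the filter on low counts the number of the 15 members called rose against vehicle to 13 for Palmul-tang high, 12 for Palmul-tang medium, 14 for Sibjeondaebo-tang low, 14 for Samul-tang high, 9 for Samul-tang medium and 12 for Samul-tang low. Between high and low it rose to 5 in Palmul-tang (all lower), 12 in Sibjeondaebo-tang and 7 in Samul-tang, and for Sibjeondaebo-tang against Palmul-tang to 14; the cause was not tested. With the compared groups alone, which leaves fewer libraries to estimate the spread, the counts against vehicle were 8 for Palmul-tang medium, 5 for Palmul-tang low, 8 for Sibjeondaebo-tang medium, 0 for Samul-tang medium and 4 for Samul-tang low, 10 for Sibjeondaebo-tang high against low and 1 for Sibjeondaebo-tang against Palmul-tang. DESeq2 gave 11 for Sibjeondaebo-tang low and 9 for Samul-tang high. In Sibjeondaebo-tang high against low MT-CO2 was not called with median-ratio factors (adjusted p = 0.0586 by edgeR) or nuclear-gene library sizes (0.0636), and MT-RNR2 was not called by DESeq2 (0.0501) or with the compared groups alone (0.0546).

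Replicate numbers showed no pairing over all groups: 8 of 111 same-numbered pairs had a correlation of deviations above 0.1 (median 0.00463). Their correlations ran from -0.17 to 0.152, and those of differently numbered pairs from -0.176 to 0.176. The pairs were pooled across label prefixes, so pairing within a prefix was not tested. With the replicate block Samul-tang low against vehicle had 0 members called, and MT-CO2 was not called in Sibjeondaebo-tang high against low (adjusted p = 0.0606 by edgeR).

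With each library left out in turn, members called against vehicle numbered 2 to 9, 10 to 14 and 13 to 15 from low to high in Sibjeondaebo-tang; 4 to 12, 0 to 6 and 0 to 10 from low to high in Palmul-tang; 0 to 1, 0 to 1 and 0 to 6 from low to high in Samul-tang. Sibjeondaebo-tang high against low ranged over 0 to 2, Sibjeondaebo-tang against Palmul-tang over 0 to 1, and Palmul-tang and Samul-tang high against low stayed at 0. The share difference between Sibjeondaebo-tang and Palmul-tang ranged over 1.23 to 1.89 points for all members (exact permutation p 0.0107 to 0.12), 0.928 to 1.51 for mRNAs and 0.247 to 0.38 for rRNAs. The rRNA share of Samul-tang high minus vehicle ranged over -0.12 to 0.136 points.

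The signs of log2 fold changes near 0 turned in places. MT-ND4L in Palmul-tang high against vehicle was 0.0021 with median-ratio factors, 0.0055 without the filter and 0.0020 in DESeq2, and -0.133 to 0.0698 with a library left out. With a library left out MT-ND4L was also -0.0239 to 0.1805 in Sibjeondaebo-tang medium and -0.0737 to 0.3683 in Samul-tang high against vehicle. In Sibjeondaebo-tang high against low MT-ND3 was -0.1173 to 0.1089, MT-ND1 -0.0136 to 0.2498 and MT-CO3 -0.0075 to 0.1289, and in Sibjeondaebo-tang against Palmul-tang MT-ND3 was -0.0341 to 0.0864. Of the members only the tRNA rows were near 0 counts, and whether greater depth would change them was not tested.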
